A study of Mus musculus with 12 samples.

Results

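The mitochondrial genome encodes 13 proteins of the respiratory chain and ATP synthase, 2 ribosomal RNAs and 22 transfer RNAs. The deposited count table held 27412 genes, of which 32 had an Ensembl identifier whose GENCODE M21 symbol starts with mt-. These 32 were 12 protein-coding genes, both ribosomal RNA genes and 18 transfer RNA genes, and all 32 are described here. The other 5 genes (mt-Atp8, mt-Ty, mt-Td, mt-Tk and mt-Tg) were not analysed here.

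RNA came from a thin outer slice of kidney cortex of untreated male C57BL/6 mice, per the labels. Of 6 animals, 3 were wild type (WT 1, WT 2 and WT 3) and 3 carried the γ-HIF2αM3 transgene (17-51, 17-53 and 17-56, called HIF2aM3). The γ, also written GGT, stands for the γ-glutamyl transferase promoter, which drives expression in proximal tubule cells. The transgene product is a form of HIF2α, a transcription factor of the hypoxia response. The comparison asks how cortical RNA differs in mice with the transgene. HIF2aM3 animals have names that begin with 17, and the sources used here say neither whether they form 1 transgenic line nor how old the animals were. Each animal gave both kidneys, which made 12 libraries. Left and right are not named in the labels.

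Both strands of the mitochondrial genome are transcribed into long precursors that are cut into single RNAs, mostly at the transfer RNAs that lie between the other genes. Ribosomal RNAs and most messenger RNAs then receive short poly(A) tails, and the stability of these RNAs sets much of their level. Subunits of complexes I, III, IV and V come from this genome and are joined with many more that are encoded in the nucleus, as are all mitoribosomal proteins and the transcription machinery. Proximal tubule and thick ascending limb cells are among the cells richest in mitochondria in the kidney.

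The libraries held 24032148 to 43499743 counts each, and kidney 2 of 17-51 held 4161829. Proximal tubule markers were detected in every library (12 of 12 genes), with a summed level of 18840 to 21120 CPM (counts scaled to a common library size) over the 6 animals. Epas1, the gene of HIF2α, stood at 196.9, 237.5 and 176.9 CPM in WT 1, 2 and 3 and at 277.7, 275.9 and 247.9 CPM in 17-51, 17-53 and 17-56. The groups did not overlap, and the log2 fold change of 0.39 ± 0.11 (SE) had an edgeR adjusted p of 0.0881, above the threshold of 0.05. The sources used here do not say whether transgene reads count towards Epas1.

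One stretch of the genome was almost empty of counts. From mt-Co1 to mt-Nd4, 11 genes lie in a row, and 7 of them were in the table. No library held more than 10 counts for any of the 7, and together they had 64 counts in the 12 libraries. Each of the other 25 genes had at least 129 counts over the 12 libraries, and all 32 genes summed to 39481364. The stretch holds the genes for the cytochrome c oxidase subunits mt-Co2 and mt-Co3, the ATP synthase subunit mt-Atp6, the complex I subunits mt-Nd3 and mt-Nd4l and the transfer RNAs mt-Ts1 and mt-Tr.

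Counts in that stretch were 37 for mt-Co2, 11 for mt-Tr, 6 each for mt-Nd3 and mt-Ts1, 2 for mt-Atp6 and 1 each for mt-Co3 and mt-Nd4l. The counts of mt-Co2 in kidney 1 and kidney 2 were 4 and 1 in WT 1, 3 and 2 in WT 2, 5 and 2 in WT 3, 3 and 0 in 17-51, 10 and 3 in 17-53 and 0 and 4 in 17-56. Kidney 1 had the higher count in 5 of 6 animals, and the genotypes overlapped. These counts were not scaled to depth, and the kidney 2 library had the lower total in 5 of 6 animals. With so few counts mt-Co2 did not pass the filter and was not tested. The neighbours on either side, mt-Co1 and mt-Nd4, had 5563234 and 4151729 counts.

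All 5 protein-coding genes of the stretch with a row had a near-identical nuclear copy among the annotated pseudogenes. By alignment of GENCODE M21 transcripts (GRCm38), mt-Co2 matched Gm28661 at 100% over 681 of its 684 bases, mt-Co3 matched Gm28437 at 100% over 783 of 784, mt-Atp6 matched Gm10925 at 100% over 678 of 681 and mt-Nd4l matched Gm10222 at 100% over 294 of 297. mt-Nd3 matched Gm28438 at 99.7% over 345 of 348 bases, with 1 mismatch, T3C, counted from the 5′ end of mt-Nd3. The 5 genes thus had between 1 and 3 bases outside their copy.

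More diverged copies also exist for genes with many counts, such as Gm11410 for mt-Cytb at 92.9% identity and Gm11408 for mt-Nd6 at 93.6%. mt-Co2 has a second copy, Gm13341, at 95.9% identity, and this pseudogene had 723 counts over the 12 libraries against the 37 of mt-Co2 itself. The opening 60 bases of mt-Co2 and its copies are shown because they hold both kinds of copy. Capitals mark the 2 bases at which Gm13341 differs from the others, while mt-Co2 and Gm28661 have 0 differences.
mt-Co2: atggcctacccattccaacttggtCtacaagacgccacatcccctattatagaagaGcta
Gm28661: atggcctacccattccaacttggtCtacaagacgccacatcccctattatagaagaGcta
Gm13341: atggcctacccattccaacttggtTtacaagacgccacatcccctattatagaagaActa

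The start of mt-Nd3 and of its copy is shown for the same reason, with the mismatched base in capitals.
mt-Nd3: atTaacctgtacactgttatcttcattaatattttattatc
Gm28438: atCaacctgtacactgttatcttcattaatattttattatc

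The copies that reach into the flanking genes covered only part of them. Gm29216 matched the last 483 of the 1545 bases of mt-Co1 (31.3%) at 99.8%, and Gm28439 matched the first 876 of the 1378 bases of mt-Nd4 (63.6%) at 100%. At a limit of 99% identity no copy was found for mt-Nd1, mt-Nd2, mt-Nd5, mt-Nd6, mt-Cytb, either ribosomal RNA gene or any transfer RNA gene. mt-Ts1 and mt-Tr, at 6 and 11 counts, had no annotated copy by the same search. The search covered annotated pseudogene transcripts only, so a copy outside them could not be found. The sources used here do not say how reads with several matching places were counted, and its part in the empty stretch was not tested. The values of mt-Co2, mt-Co3, mt-Atp6, mt-Nd3 and mt-Nd4l, and the levels of mt-Co1 and mt-Nd4, are therefore uncertain.

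The deposited RPKM values (reads scaled to gene length and library size) hide the zeros of the stretch. A gene with 0 counts was given the RPKM of 1 read, so its value was highest in the library with the fewest reads. For mt-Atp6, kidney 2 of 17-51 had 0 counts and an RPKM of 0.319, while kidney 2 of WT 1, with 1 count, had 0.103. In the authors' deposited table mt-Atp6 has a log2 fold change of 0.81, although it had 1 count in WT and 1 in HIF2aM3. Its mean RPKM was 0.0529 in WT and 0.0926 in HIF2aM3. The latter mean includes the 0.319 of kidney 2 of 17-51, the highest value of the 12 libraries, from 0 counts.

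**Figure D1:**
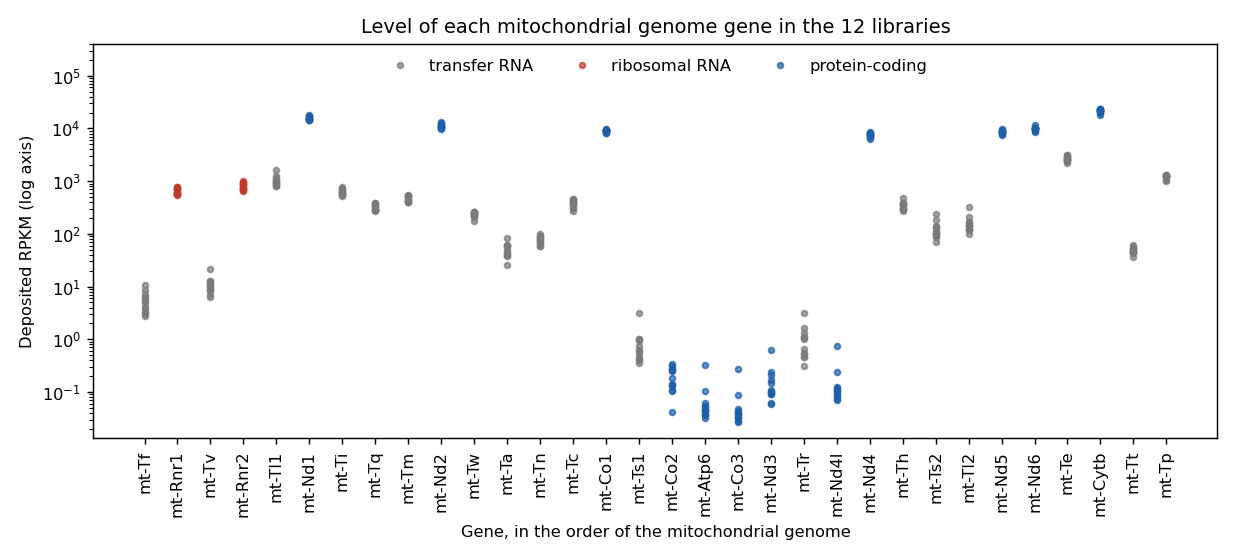
Deposited RPKM (log axis) of the 32 genes in the order of the mitochondrial genome, with 1 point for each of the 12 libraries. The 7 genes from mt-Ts1 to mt-Nd4l lie lowest by their mean over animals, with the highest points of mt-Ts1 (3.15) and mt-Tr (3.197) just above the lowest of mt-Tf (2.81), and there a point can stand for 0 counts because the deposited RPKM adds a read. The 7 other protein-coding genes lie highest.

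Per kilobase of gene, mt-Cytb, the cytochrome b subunit of complex III, had the highest level, at 21560 ± 1328 RPKM (SD over 6 animals). mt-Nd1, a core membrane subunit of complex I, followed at 15690 ± 872.4 RPKM. Neither animal range overlapped that of the next gene in order. mt-Nd2 (11270 ± 916.1), mt-Nd6 (9958 ± 520.3), mt-Co1 (9042 ± 369.4), mt-Nd5 (8555 ± 380.8) and mt-Nd4 (7541 ± 547.1 RPKM) came next, and the animals of neighbours in that order overlapped.

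mt-Nd6 is the only protein-coding gene on the opposite strand, which is described in textbooks as the less heavily used template for messenger RNA. Its level ranked 4 of 7, between those of mt-Nd2 and mt-Co1. The sources used here do not say whether counting used the strand, and without it reads of mt-Nd6 cannot be told apart from transcripts of the other strand that cross the gene.

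Transfer RNA genes covered a wider range. mt-Te (glutamate) stood at 2696 ± 208.7 RPKM, mt-Tp (proline) at 1221 ± 101.5 and mt-Tl1 (leucine, UUR codons) at 1021 ± 217.2. The lowest outside the empty stretch were mt-Tv (valine) at 10.8 ± 2.69 and mt-Tf (phenylalanine) at 5.52 ± 2.27 RPKM, both beside ribosomal RNA genes. mt-Rnr2 and mt-Rnr1, the large and small ribosomal RNAs, stood at 812.7 ± 113.7 and 654.7 ± 83.13 RPKM. Transfer RNA genes are shorter than most sequencing fragments. They lie within a few bases of their neighbours, save the 32 bases between mt-Tn and mt-Tc. The stretch between mt-Tp and mt-Tf, the last and first genes in order, was not measured. Reads of transfer RNA genes may therefore belong to precursors or to adjacent genes.

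The share of all counts that fell on the mitochondrial genome differed between genotypes by less than the SD of the WT animals. The difference exceeded the smaller SD of the HIF2aM3 animals. The share was 10.88, 10.83 and 11.76% in WT 1, 2 and 3 and 10.9, 11.05 and 10.79% in 17-51, 17-53 and 17-56. The groups overlapped, with means of 11.16 ± 0.523% and 10.91 ± 0.133% (SD, n = 3; exact permutation test, two-sided, p = 0.7). Nearly all of it came from the protein-coding genes, at 10.86 ± 0.522% in WT and 10.66 ± 0.152% in HIF2aM3 (exact p = 0.8). Transfer RNA genes took 0.0592 ± 0.00301% and 0.0607 ± 0.00483% (exact p = 0.8).

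Ribosomal RNA was the class whose share separated the genotypes. It was 0.251, 0.219 and 0.231% in WT 1, 2 and 3 and 0.176, 0.184 and 0.213% in 17-51, 17-53 and 17-56. Every HIF2aM3 animal was below every WT animal, although 17-56 came close to WT 2. The exact permutation p = 0.1 is the smallest that 3 animals against 3 can give, and adjusted over the 4 shares it was 0.4.

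Of the 25 genes that passed the count filter (7 protein-coding, 2 ribosomal RNA and 16 transfer RNA genes), 0 were called between the genotypes in edgeR at an adjusted p under 0.05, against 3.75% of all genes tested. Unadjusted, 4 had a p under 0.05. The share of all genes with such a p is not given here, so this count is a description only. All 4 were lower in HIF2aM3: mt-Rnr1, mt-Rnr2, mt-Ti and mt-Tq. For 3 of the 25 the animals of the genotypes did not overlap, against 32.0% of all genes tested. The median log2 fold change of the 25 was -0.04, beside 0.0 over all genes, with 16 of 25 values below 0.

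**Figure D2:**
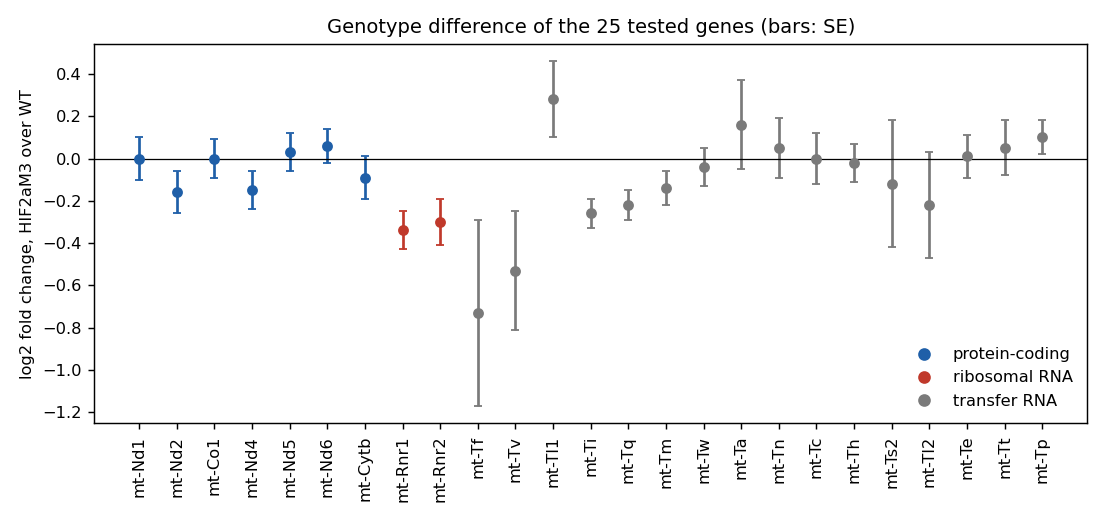
Log2 fold change of HIF2aM3 over WT for the 25 genes tested, by class, with bars of 1 SE from the edgeR fit on 3 animals against 3. Protein-coding genes lie between -0.16 and 0.06, both ribosomal RNAs lie below 0, and the transfer RNAs scatter more widely.

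No protein-coding gene was called between genotypes, beside 3.75% of all genes tested. mt-Cytb was at 28310 ± 2091 CPM in WT and 26670 ± 1653 CPM in HIF2aM3, a log2 fold change of -0.09 ± 0.10 (SE, edgeR adjusted p = 0.629). Among complex I subunits, mt-Nd2 had a log2 fold change of -0.16 ± 0.10, mt-Nd4 of -0.15 ± 0.09, mt-Nd5 of 0.03 ± 0.09, mt-Nd6 of 0.06 ± 0.08 and mt-Nd1 of 0.0 ± 0.10. mt-Co1, the catalytic core of complex IV, was at 15560 ± 1032 and 15570 ± 581.1 CPM. Animals of the genotypes overlapped for all 7. Their 95% intervals of the log2 fold change lay between -0.39 and 0.25. These bounds come from different genes, with -0.39 to 0.08 for mt-Nd2 and -0.13 to 0.25 for mt-Nd6. Changes beyond the bounds lie outside every interval, and smaller ones have to be read against the interval of each gene.

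The 12S ribosomal RNA mt-Rnr1 was at 800.6, 692.5 and 830.6 CPM in WT 1, 2 and 3 and at 581.6, 610.8 and 648.0 CPM in 17-51, 17-53 and 17-56. All HIF2aM3 animals were below all WT animals. Its log2 fold change was -0.34 ± 0.09 (SE), short of the threshold (edgeR adjusted p = 0.0727). DESeq2, which called 10.6% of all genes, called mt-Rnr1 (adjusted p = 0.00428) and mt-Ti (adjusted p = 0.0405). Without WT 2 the mt-Rnr1 value was -0.42 (edgeR adjusted p = 0.0235), and over all alternatives its adjusted p ran from 0.00428 to 0.204.

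The 16S ribosomal RNA mt-Rnr2 was at 1749, 1439 and 1553 CPM in WT 1, 2 and 3 and at 1173, 1209 and 1462 CPM in 17-51, 17-53 and 17-56. Its groups overlapped, because 17-56 was above WT 2. The log2 fold change was -0.30 ± 0.11 (edgeR adjusted p = 0.152). The 12 libraries taken as replicates, a fit that ignores the shared animal and called 26.6% of all genes, called mt-Rnr1, mt-Rnr2, mt-Ti and mt-Tq.

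Set against the protein-coding counts of the same genome, which removes the scaling to the library, mt-Rnr1 was still lower in every HIF2aM3 animal. It had 7.46, 6.72 and 7.02 counts per 1000 protein-coding counts in WT 1, 2 and 3 and 5.47, 5.71 and 6.21 in 17-51, 17-53 and 17-56 (exact permutation p = 0.1, the smallest possible). mt-Rnr2 had 16.3, 13.97 and 13.13 in WT and 11.04, 11.29 and 14.03 in HIF2aM3 animals, which overlapped (exact p = 0.3). The ratio of mt-Rnr2 to mt-Rnr1 counts was 2.04 ± 0.160 in WT and 2.08 ± 0.151 in HIF2aM3 (SD, n = 3; exact permutation p = 0.8).

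**Figure D3:**
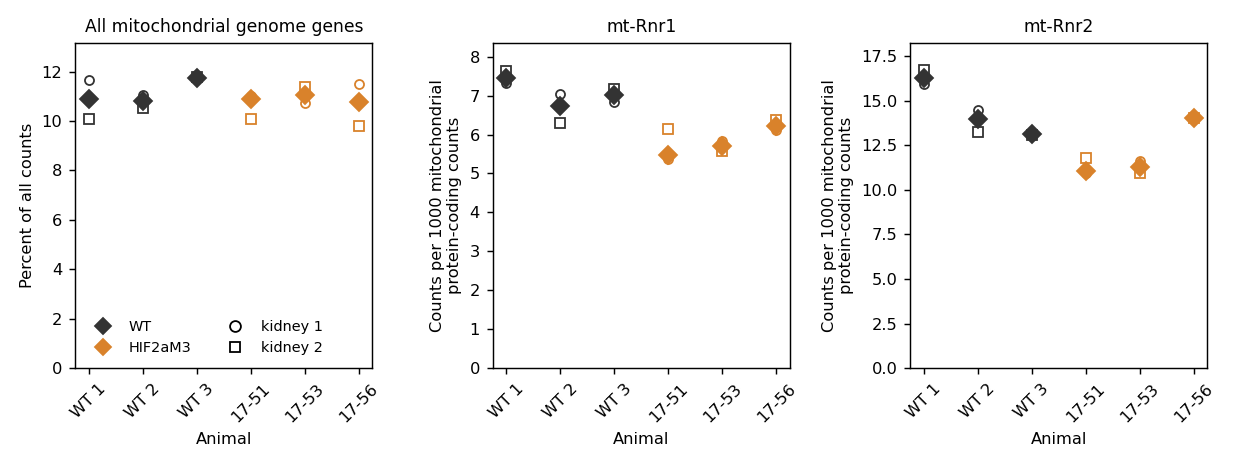
Percent of all counts on the mitochondrial genome, and counts of mt-Rnr1 and mt-Rnr2 per 1000 mitochondrial protein-coding counts, with filled diamonds for an animal (both kidneys summed) and open symbols for its kidneys. The total share overlaps between genotypes, while mt-Rnr1 lies at 5.47 to 6.21 in HIF2aM3 animals and at 6.72 to 7.46 in WT animals.

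RNA without a poly(A) tail was examined beside the ribosomal RNAs. The TruSeq RNA kit selects polyadenylated RNA, and 168 nuclear genes of RNA without a poly(A) tail (small nucleolar RNAs, replication histones and the like) were in the table. Their summed level was 352.6 to 380.7 CPM in WT and 262.9 to 352.7 CPM in HIF2aM3 animals, which overlapped at the margin, with 87 of 168 detected in all libraries. Of 92 tested, 76 had a value below 0, beside 49.1% of all genes, and the median log2 fold change was -0.33, beside 0.0. Of the 92, 2 fell (2.17%, below the 3.75% of all genes called), the histone genes Hist1h2ba (-0.60 ± 0.11) and Hist1h2bq (-0.50 ± 0.11). The part of this difference in the ribosomal RNA result was not tested.

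The summed levels of some cell type markers were also separated by genotype, although few single markers were called. The summed level of 6 thick ascending limb markers was 3934 to 5057 CPM in WT and 3394 to 3680 CPM in HIF2aM3. That of 5 markers of collecting duct principal cells was 281.4 to 314.2 and 216.7 to 241.3 CPM. Endothelial markers (6 genes) stood at 258.4 to 367.7 and 431.9 to 437.7 CPM, fibroblast and pericyte markers (5 genes) at 98.8 to 180.3 and 185.4 to 278.2 CPM and leukocyte markers (6 genes) at 51.6 to 79.1 and 91.2 to 105.9 CPM. None of these 5 sums overlapped between genotypes, as was the case for 32.0% of all single genes, and all their genes were detected in every library. Of the single markers 0 of 6 were called for the thick ascending limb and 2 of 5 for collecting duct principal cells. For endothelium it was 2 of 6, for fibroblasts and pericytes 0 of 5 and for leukocytes 1 of 6. Beside these stand 3.75% of all genes called. The sums of proximal tubule, distal convoluted tubule, intercalated cell, podocyte and erythroid markers overlapped. Among these lists 2 of 12 proximal tubule markers and 1 of 5 intercalated cell markers were called, and 0 in the others. In slices of tissue, fewer cells of a type and less RNA per cell cannot be told apart, and the part of these differences in the mitochondrial values was not tested.

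Of 16 tested transfer RNA genes 2 were separated by genotype, beside 32.0% of all genes tested. They are neighbours behind mt-Nd1, and neither passed the threshold. mt-Ti (isoleucine) was at 51.2, 50.3 and 58.1 CPM in WT 1, 2 and 3 and at 47.3, 43.7 and 42.1 CPM in 17-51, 17-53 and 17-56, a log2 fold change of -0.26 ± 0.07 (SE, edgeR adjusted p = 0.0869). mt-Tq (glutamine), on the opposite strand, was at 26.7, 26.9 and 29.3 CPM in WT and 24.6, 21.8 and 24.8 CPM in HIF2aM3 animals (-0.22 ± 0.07, edgeR adjusted p = 0.115). The groups did not overlap for either gene. The annotation has these genes share 3 bases, so part of their reads can be shared if counting did not use the strand. mt-Ti also shares 2 bases with mt-Nd1, whose animals overlapped.

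mt-Tl1, which lies between mt-Rnr2 and mt-Nd1, had the highest value of the 25. It was at 75.6, 73.8 and 82.3 CPM in WT 1, 2 and 3 and at 92.3, 70.1 and 119.8 CPM in 17-51, 17-53 and 17-56, a log2 fold change of 0.28 ± 0.18 that did not pass (edgeR adjusted p = 0.367). The groups overlapped, and without 17-56 the log2 fold change was 0.07. Per 1000 counts of mt-Nd1 the 3 HIF2aM3 animals had 5.72, 4.18 and 6.94 counts of mt-Tl1, and the WT animals between 4.45 and 4.74.

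For the other transfer RNAs the animals of the genotypes overlapped. Their log2 fold changes were -0.73 ± 0.44 for mt-Tf, -0.53 ± 0.28 for mt-Tv, -0.22 ± 0.25 for mt-Tl2, -0.14 ± 0.08 for mt-Tm and -0.12 ± 0.30 for mt-Ts2. They were 0.16 ± 0.21 for mt-Ta, 0.10 ± 0.08 for mt-Tp, 0.05 ± 0.14 for mt-Tn and 0.05 ± 0.13 for mt-Tt. mt-Tw (-0.04), mt-Th (-0.02), mt-Te (0.01) and mt-Tc (0.0) were closest to 0. mt-Tf and mt-Tv rested on 129 and 268 counts in all 12 libraries and had wide errors.

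The authors' deposited table holds q-values of a test of means and of Fisher's exact test. The q of the former in the authors' deposited table is under 0.05 for 2 of the 32 genes, mt-Rnr1 (log2 fold change -0.30, q = 0.0163) and mt-Ti (-0.27, q = 0.0171). By Fisher's exact test the authors' deposited table has a q under 0.05 for 18 of the 32, among them mt-Co1, whose log2 fold change is listed there as 0.01. A Fisher test on counts carries counting error only and not the spread between animals.

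Within the protein-coding counts, the make-up of 17-56 stood apart from the other 5 animals. mt-Cytb took 23.8% of the counts of the 7 genes in 17-56 and 25.4 to 26.2% in the others. mt-Nd4 took 9.71% against 10.7 to 11.5%, and mt-Nd5 17.4% against 15.6 to 16.3%. mt-Nd1 (16.6%) and mt-Nd6 (5.93%) were also highest in 17-56.

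Between genotypes, the shares of 2 of the 7 genes did not overlap. By CPM, the animals of the genotypes did not overlap for 32.0% of all genes tested. mt-Nd4 took 11.5, 11.1 and 10.9% in WT 1, 2 and 3 and 10.7, 10.8 and 9.71% in 17-51, 17-53 and 17-56, and mt-Nd5 took 15.6, 16.1 and 15.7% and 16.3, 16.1 and 17.4%. Each gave an exact permutation p = 0.1, the smallest possible, and 0.233 when adjusted over the 7 genes. The nearest animals of the genotypes were 0.0901 points apart for mt-Nd5 and 0.0882 points for mt-Nd4, and in the kidney 1 libraries taken alone 0 of the 7 genes were separated. The shares of the 7 genes sum to 100%, so a higher share of 1 gene lowers the others.

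**Figure D4:**
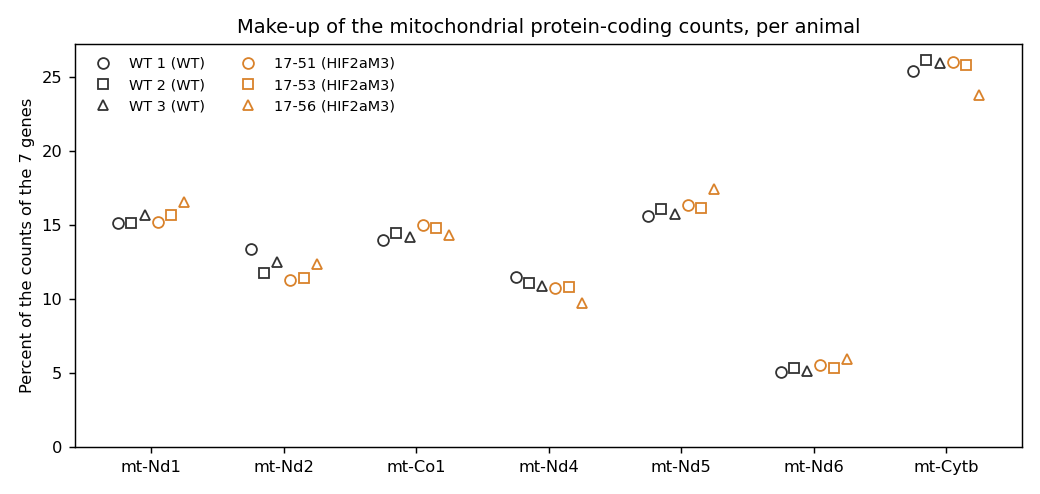
Percent of the counts of the 7 measured protein-coding genes taken by each gene, with 1 symbol per animal (both kidneys summed). The triangle of 17-56 lies below the other animals for mt-Cytb and mt-Nd4 and above them for mt-Nd1, mt-Nd5 and mt-Nd6.

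Between the kidneys of an animal, the genes called in edgeR were transfer RNA genes. With the animal as a block, 2 of 24 tested genes were called in edgeR, both lower in kidney 2, against 0.0936% of all genes tested (17 of 18164, 15 lower and 2 higher). They were mt-Tc (cysteine) and mt-Tn (asparagine), neighbours on the opposite strand. Between them lies the 32-base gap that is known in textbooks as the origin of light-strand replication. Whether transfer RNA genes differed more than protein-coding genes was not tested.

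mt-Tc was at 35.3, 29.1, 32.9, 32.0, 26.0 and 34.4 CPM in kidney 1 and at 23.0, 22.0, 27.2, 26.99, 19.9 and 25.7 CPM in kidney 2 of WT 1, WT 2, WT 3, 17-51, 17-53 and 17-56. Kidney 2 was lower in 6 of 6 animals, by a log2 value of -0.40 ± 0.05 (SE, edgeR adjusted p = 0.000518). mt-Tn was at 6.62, 7.11, 7.35, 7.72, 5.65 and 6.998 CPM in kidney 1 and at 4.60, 4.88, 5.62, 5.92, 4.502 and 5.73 CPM in kidney 2 of the same animals. It was lower in 6 of 6 as well, by -0.41 ± 0.07 (edgeR adjusted p = 0.0372).

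The mt-Tc call held in edgeR when each animal was left out, with adjusted p between 0.000399 and 0.00435, while mt-Tn kept its call only without 17-56 and otherwise had adjusted p between 0.0643 and 0.243. DESeq2 gave both an adjusted p of NA (unadjusted p = 3.66e-10 and 0.000418) and called mt-Tl1 (adjusted p = 0.00287) and mt-Nd6 (adjusted p = 0.0415) instead.

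The next 2 genes by p were also lower in kidney 2 in 6 of 6 animals without passing the threshold. mt-Tl1 had a log2 value of -0.23 ± 0.04 (edgeR adjusted p = 0.0557) and mt-Tq of -0.24 ± 0.05 (edgeR adjusted p = 0.0697). In all, 4 of 24 genes were lower in kidney 2 in every animal, against 3.31% of all genes tested. These 4 transfer RNA genes are shown because they were lower in kidney 2 in every animal. Each runs 5′ to 3′ as its RNA does, with the anticodon in capitals, from GENCODE M21 (GRCm38).
mt-Tc: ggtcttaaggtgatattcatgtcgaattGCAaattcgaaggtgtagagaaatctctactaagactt
mt-Tn: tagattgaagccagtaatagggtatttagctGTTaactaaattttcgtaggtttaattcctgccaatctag
mt-Tl1: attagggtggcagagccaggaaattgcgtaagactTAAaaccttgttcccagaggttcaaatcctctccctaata
mt-Tq: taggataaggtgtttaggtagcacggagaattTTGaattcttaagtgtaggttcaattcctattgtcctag

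The lower values in kidney 2 ran through the genome. Of 24 genes 23 had a value below 0, with a median of -0.14 beside -0.0 over all genes tested, of which 50.5% were below 0. Only mt-Tt (threonine) had a value above 0, at 0.08 ± 0.09. The 7 protein-coding genes lay between -0.11 and -0.18, and 0 were called. By animal they showed lower values in WT 1, WT 2, 17-51 and 17-56, values on both sides of 0 in WT 3 and higher ones in 17-53. For mt-Cytb the log2 value of kidney 2 over kidney 1 was -0.21, -0.07 and -0.01 in WT 1, 2 and 3 and -0.13, 0.10 and -0.31 in 17-51, 17-53 and 17-56.

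**Figure D5:**
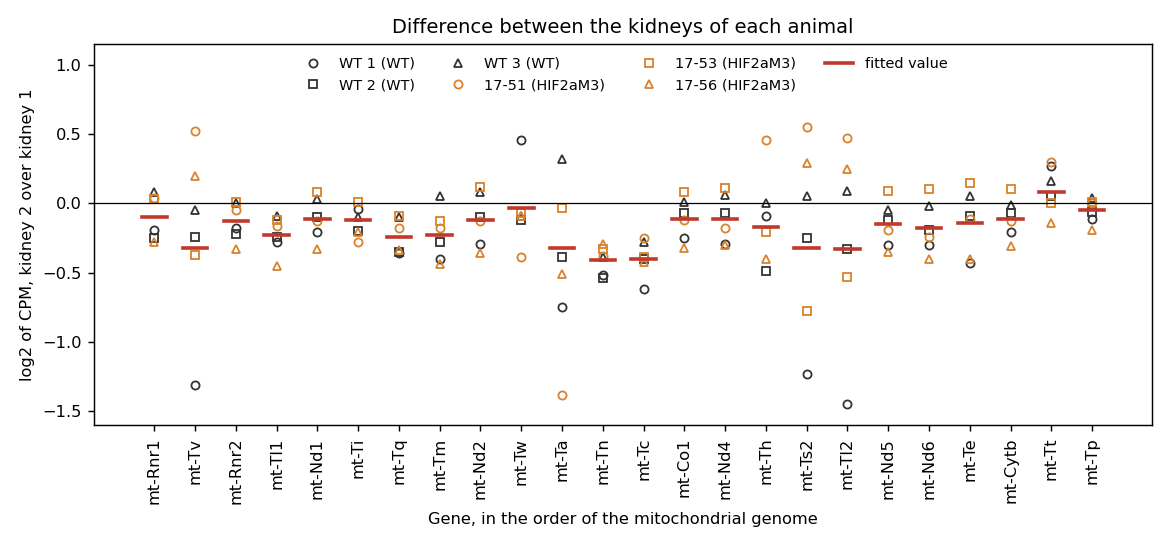
Log2 of CPM in kidney 2 over kidney 1 for each animal (symbols) and as fitted with the animal as a block (bars), for the 24 genes tested in genome order. All 6 animals lie below 0 for mt-Tl1, mt-Tq, mt-Tn and mt-Tc, and animals scatter on both sides of 0 for mt-Ts2 and mt-Tl2.

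The share of all counts on the mitochondrial genome was 11.29% in kidney 1 and 10.61% in kidney 2 on average, lower in kidney 2 in 4 of 6 animals (exact sign-flip permutation test, two-sided, p = 0.188). The transfer RNA share was 0.0624% in kidney 1 and 0.0568% in kidney 2 and was lower in kidney 2 in 6 of 6 animals. Its exact permutation p = 0.0312 is the smallest that 6 animals can give, and it was 0.125 when adjusted over the 4 shares. Relative to the summed protein-coding counts of the same library, mt-Tc was lower in kidney 2 in 6 of 6 animals, with a mean log2 value of -0.27, and mt-Tn in 5 of 6, with a mean of -0.29. Per 1000 counts of mt-Co1, mt-Tc and mt-Tn together ran from 1.49 to 2.56 over the libraries and were lower in kidney 2 in 6 of 6 animals.

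Depth and marker levels of the kidneys are given beside this result. The kidney 2 library had the lower total in 5 of 6 animals. Erythroid markers (5 genes, 4 of them detected in all libraries) had a summed level that was higher in kidney 2 in 5 of 6 animals, by a mean log2 value of 0.46. Of these, 1 was called between the kidneys, beside 0.0936% of all genes tested. Thick ascending limb markers were lower in 5 of 6, by -0.18, and intercalated cell markers also in 5 of 6, by -0.05. Podocyte markers were lower in 1 of 6, with a mean of 0.10. The remaining marker lists had means between -0.06 and 0.24. Their part in the transfer RNA difference was not tested. The test of whether the kidney difference depended on genotype called 0 of 24 genes and 0.0% of all genes. None of the 24 had an unadjusted p under 0.05 there, 534 of all genes did, and DESeq2 called 0 as well.

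Nuclear genes whose products read, translate or complete the mitochondrial genome were looked up in the same genotype comparison. The transcription and replication machinery held 25 tested genes and 0 calls, with a median log2 fold change of -0.01. Polrmt, the mitochondrial RNA polymerase, went from 46.5 ± 3.99 to 40.3 ± 0.973 CPM (-0.20 ± 0.07, edgeR adjusted p = 0.128). Tfam, which packs the genome and starts transcription, was at 57.9 ± 2.77 and 57.6 ± 2.36 CPM (edgeR adjusted p = 0.943). Top1mt, the mitochondrial topoisomerase gene with the smallest p of the list, had -0.17 ± 0.05 (edgeR adjusted p = 0.12).

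RNA processing and stability genes gave 0 calls among 41 (median -0.05). Lrpprc, which stabilises mitochondrial messenger RNAs, was at 136.8 ± 7.36 and 136.7 ± 7.15 CPM. Fastk, of a family of mitochondrial RNA-binding proteins, had the smallest p of that list (-0.27 ± 0.06, edgeR adjusted p = 0.0619). The 23 aminoacyl-tRNA synthetase genes and 16 translation factor genes gave 0 calls too, with medians of -0.08 and -0.14. Their smallest p belonged to Aars2 (-0.33 ± 0.07, edgeR adjusted p = 0.0522) and Coa3 (-0.28 ± 0.06, edgeR adjusted p = 0.055).

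Mitoribosomal protein genes, whose products assemble on mt-Rnr1 and mt-Rnr2, were lower in part. Of 85 tested, 10 fell, 0 rose and 75 did not pass. That is 11.8% of the list, beside 3.75% of all genes called in either direction. The median log2 fold change was -0.14, and 78 of 85 values were below 0, beside 49.1% of all genes. Mrps34, of the small subunit, was at 66.6, 67.2 and 66.8 CPM in WT and 53.3, 55.1 and 50.2 CPM in HIF2aM3 animals (-0.34 ± 0.05, edgeR adjusted p = 0.0261). Mrps12 had -0.38 ± 0.06 and Mrpl53, of the large subunit, -0.33 ± 0.05 (both edgeR adjusted p = 0.0281), and animals did not overlap for any of the 3.

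Among nuclear subunits, complex I had 4 falls and 0 rises among 39 genes (10.3%, beside 3.75% of all genes called), with 38 values below 0, beside 49.1% of all genes, and a median of -0.18. Ndufa8 (-0.31 ± 0.05), Ndufb7 (-0.32 ± 0.06) and Ndufb10 (-0.31 ± 0.05) led it, and the 5 complex I subunits measured on the mitochondrial genome lay between -0.16 and 0.06. Complexes III, IV and V had 0 calls among 9, 16 and 17 genes, with medians of -0.19, -0.15 and -0.12 and every value below 0, beside the same 49.1% of all genes. Their smallest p belonged to Uqcr11 (edgeR adjusted p = 0.0739), Cox7a2 (0.0677) and Atp5j2 (0.0521). Whether nuclear and mitochondrial subunits differ in their change was not tested.

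Of 15 regulators of mitochondrial biogenesis 2 fell and 0 rose, or 13.3% beside 3.75% of all genes called. Esrra, an orphan nuclear receptor that drives oxidative metabolism genes, went from 149.8 ± 1.60 to 118.6 ± 1.70 CPM (-0.34 ± 0.05, edgeR adjusted p = 0.0211). Pprc1, a coactivator of the PGC-1 family, had -0.44 ± 0.09 (edgeR adjusted p = 0.0428), while Ppargc1a, which encodes PGC-1α, was at 105.9 ± 2.64 and 110.5 ± 4.89 CPM (edgeR adjusted p = 0.515). Of 17 mitophagy and turnover genes Bnip3l, a mitophagy receptor and known HIF target, rose from 62.0 ± 3.45 to 85.8 ± 2.97 CPM (0.47 ± 0.06, edgeR adjusted p = 0.0167), and 16 did not pass. That is 5.88% of the list, near the share over all genes.

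The number of calls in the nuclear lists changed with the animals used, as did that over all genes. In all 17 list genes were called (16 lower and 1 higher), beside 733 of all genes. Without WT 1 there were 0, beside 115 of all genes, without 17-51 0 beside 42, and without 17-53 0 beside 11. Without WT 3 there was 1 beside 187, without 17-56 1 beside 196, and without WT 2 there were 31 beside 1549. DESeq2 called 49 list genes beside 2074 of all genes. None of the list genes was called between the kidneys.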

How the data were processed

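The authors deposited counts, RPKM values, log2 RPKM values, a log2 fold change and q-values per Ensembl gene in a single table, per the file headers. Libraries were made with a TruSeq RNA kit, per the labels' protocols. The submitters' processing notes name mouse build mm9. Neither tools nor strand setting of alignment and counting are stated in the sources used here. Symbols, gene order and transcript sequences came from GENCODE M21 (GRCm38), and 24630 of 27412 identifiers matched. Because the builds differ, no coordinates are given.

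Counts of both kidneys were summed per animal and tested, over all genes, by edgeR's quasi-likelihood test (edgeR 4.0.16, R 4.3.3; filterByExpr, TMM factors, robust, two-sided, Benjamini-Hochberg adjusted threshold 0.05). SE is the absolute log2 value over the square root of F. CPM values carry TMM factors. Kidneys were compared on 12 libraries with the animal as a block. DESeq2 1.42.0 and limma 3.58.1 on log2(RPKM + 1) were alternatives, and each library left out was added after the data were seen. Copies were searched with blastn 2.17.0 (at least 90% identity, 30 bases). The 12 deposited log2 RPKM columns of libraries were not used. The fits were tested on simulated data.

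Named genes were all mitochondrial protein-coding and ribosomal RNA genes, transfer RNA genes past the filter, up to 3 called genes per nuclear list or else the gene with the smallest p, and Polrmt, Tfam, Lrpprc and Ppargc1a. The members and lists were chosen with earlier results of these data known. Gm13340, the nuclear copy with the smallest p, had a log2 fold change of 0.26 ± 0.24 (edgeR adjusted p = 0.543), and both tested copies did not pass. Library totals ran between 4161829 and 43499743, which limits the precision of genes with few counts most.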

Additional observations from a re-analysis of the deposited data

Results flagged for a closer look

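Of 96 sets of 6 values examined (the 6 libraries of a genotype, or the 6 animals' kidney differences), 6 held a value far from the other 5. Chance gives about 1 in 20 where values are independent, which the kidneys of an animal are not.

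Among the WT libraries, kidney 1 of WT 1 stood apart for 4 transfer RNAs. It was highest for mt-Tl2, at 26.1 CPM against 11.8 in the next library, for mt-Ts2, at 16.3 against 6.94 CPM, and for mt-Tv, at 1.65 against 0.902 CPM. It was lowest for mt-Tw, at 13.2 against 17.6 CPM. mt-Tl2 and mt-Ts2 overlap by 1 base, so part of their reads can be shared.

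Among the HIF2aM3 libraries, kidney 1 of 17-56 stood apart for both ribosomal RNAs, at 705.0 CPM against 617.7 in the next library for mt-Rnr1 and at 1617 against 1282 CPM for mt-Rnr2.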

How the results depend on the processing

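The number of genes called changed with the animals used and the method. Leaving out 1 animal at a time gave 11 to 1549 calls among all genes, 0 to 1 among the mitochondrial genes and 0 to 31 in the nuclear lists, where the reported values were 733, 0 and 17. DESeq2 gave 2074, 2 and 49, the 12 libraries as replicates 4830, 4 and 123, and limma on RPKM 125, 0 and 2. With no count filter 1 mitochondrial gene (mt-Rnr1) and 27 list genes were called, and with kidney 2 alone 337 genes and 8 list genes. Leaving out kidney 2 of WT 1 gave 480 calls and kidney 1 of 17-56 gave 479. Leaving out kidney 2 of WT 2 (mt-Rnr1) or kidney 1 of 17-51 (mt-Ti) gave 1 mitochondrial call, the latter with 30 list genes. The median of the protein-coding genes, -0.003, stayed between -0.069 and 0.052 in every alternative. The difference in the total share, -0.243 points, ran from -0.405 to 0.0592 with each animal left out, being above 0 without WT 3. The 2 separated protein-coding shares were 0 with kidney 1 alone and 2 to 5 with each animal left out. Leaving out an animal cannot undo a separation, so that count could only stay or rise. Of 694 values of single mitochondrial genes under an alternative, 92 changed sign, in 13 of 25 genes, none of them called, and 10 passed the threshold. The cause was not tested. The 2 kidney calls became 1 with library size alone (mt-Tc), 4 with no count filter (mt-Tl1 and mt-Tq added), 1 to 3 with each animal left out and 0 with no replicate block, where the pairing of kidneys is not used. Depth limits mt-Tf and mt-Tv, with 129 and 268 counts, and the 7 genes of the empty stretch most.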
